A study of Mus musculus with 29 samples.

Results

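The genes described here are 10 mouse genes of late neutrophil maturation: the alarmin genes S100a8 and S100a9, the secondary granule genes Ltf, Lcn2, Camp, Ngp and Mmp8, the tertiary granule gene Mmp9, the surface protein gene Cd177 and the transcription factor gene Cebpe. They were found by matching the Entrez identifiers of the deposited count files to mouse gene symbols. All 10 were present among the 18834 identifiers and all 10 passed the filter on low counts. Their RNA was followed in 29 libraries of megakaryocyte-erythrocyte progenitors (MEPs), the bone marrow progenitors of platelets and red cells, in which neutrophil granule genes are not markers of the cell type.

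Per the labels, every mouse carried an Scl-driven Cre transgene, written ScleCre or SclCre; Scl is the older name of Tal1, a transcription factor of blood progenitors. JAK2 V617F is the activating kinase change found in many human myeloproliferative neoplasms, and Ezh2 encodes the histone H3 lysine 27 methyltransferase of Polycomb repressive complex 2. With V617F there were 6 Ezh2 -/- libraries, 6 Ezh2 +/- libraries and 4 Ezh2 +/+ libraries, the last called V617F below. Without V617F there were 4 Ezh2 -/- libraries, 4 Ezh2 +/- libraries and 5 Ezh2 +/+ libraries, the last called control. The V617F Ezh2 -/- and V617F Ezh2 +/- libraries were all from females, the V617F and Ezh2 -/- groups held 1 male each, and the Ezh2 +/- and control groups 2 males each. Not given in the sources used here were the cells in which Cre was active, the ages of the mice and the sorting gates. The labels say only "replicate", and the spread behind each p-value may therefore be in part technical.

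Neutrophils fill their granules in order. Primary granule proteins such as elastase are made by promyelocytes, secondary (specific) granule proteins by myelocytes, and tertiary (gelatinase) granule proteins later, and C/EBP epsilon, the product of Cebpe, is required for much of the secondary granule set. S100A8 and S100A9 form calprotectin, a calcium-, zinc- and manganese-binding complex that is abundant in neutrophil cytosol and acts outside cells as an alarmin on Toll-like receptor 4 and RAGE.

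The sequence just upstream of the genes is shown because the genes moved together in the libraries. The 250 bases before the annotated start of each gene, on the gene's strand, were taken from the RefSeq promoter table of build GRCm38.p6, which held 8 of the 10 genes; Mmp9 and Cebpe were not matched. The 2 alarmin genes and 3 secondary granule genes are printed 5′ to 3′, and capitals mark matches, on either strand, to 3 motifs. TTGCNNAA is a C/EBP-type site. GAGGAA is the core of a PU.1-type site. TATAAA is a TATA box. In S100a8 the last GAGGAA match, read on the other strand as TTCCTC, directly adjoins the TATA match.
S100a8, chr3:90668821-90669070, plus strand: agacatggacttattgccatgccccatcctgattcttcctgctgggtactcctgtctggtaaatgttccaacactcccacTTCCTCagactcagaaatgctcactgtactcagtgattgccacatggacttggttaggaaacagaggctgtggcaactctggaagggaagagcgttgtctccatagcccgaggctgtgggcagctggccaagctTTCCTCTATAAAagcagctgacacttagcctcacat
S100a9, chr3:90695722-90695971, minus strand: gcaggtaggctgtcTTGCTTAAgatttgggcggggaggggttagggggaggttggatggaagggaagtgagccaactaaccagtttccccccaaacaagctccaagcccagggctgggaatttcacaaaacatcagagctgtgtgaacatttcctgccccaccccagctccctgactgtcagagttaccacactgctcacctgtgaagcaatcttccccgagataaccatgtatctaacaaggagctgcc
Ltf, chr9:111019042-111019291, plus strand: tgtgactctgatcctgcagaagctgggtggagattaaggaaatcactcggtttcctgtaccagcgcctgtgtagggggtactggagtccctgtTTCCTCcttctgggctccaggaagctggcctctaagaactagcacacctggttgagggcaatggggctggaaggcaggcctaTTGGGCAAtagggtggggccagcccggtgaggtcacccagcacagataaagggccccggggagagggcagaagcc
Lcn2, chr2:32387740-32387989, minus strand: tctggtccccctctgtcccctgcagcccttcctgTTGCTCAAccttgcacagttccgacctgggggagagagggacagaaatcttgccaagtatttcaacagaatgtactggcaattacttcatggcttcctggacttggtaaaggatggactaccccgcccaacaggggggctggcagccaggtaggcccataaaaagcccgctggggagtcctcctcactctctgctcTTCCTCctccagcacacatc
Ngp, chr9:110419558-110419807, plus strand: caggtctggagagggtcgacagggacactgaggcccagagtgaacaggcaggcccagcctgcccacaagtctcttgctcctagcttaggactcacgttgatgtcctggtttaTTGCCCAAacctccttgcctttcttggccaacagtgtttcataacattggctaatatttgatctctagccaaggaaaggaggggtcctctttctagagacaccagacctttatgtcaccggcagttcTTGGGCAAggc
TTGCNNAA occurred in 5 of the 8 promoters, those of S100a9, Ltf, Lcn2, Ngp and Mmp8, and in 9.56% of all 32851 promoters of the same length. GAGGAA occurred in 5 of the 8, those of S100a8, Ltf, Lcn2, Mmp8 and Cd177, and in 23.3% of all promoters. TATAAA occurred in those of S100a8 and Cd177, 2 of the 8, and in 12.4% of all promoters. The Camp window held none of these letters. A match describes the sequence and is not a binding site.

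Libraries held between 31583023 and 59448945 counts. Levels are given as CPM, the counts divided by the library total and its TMM factor (a scaling that balances the libraries over most genes) and scaled to 1000000. The limit that a count of 0 allows, 3 counts, corresponds to 0.0496 to 0.0946 CPM in a single library. Such limits cover counting error only. The labels were checked by Ezh2 itself: it averaged 55.0 ± 3.10 CPM in V617F Ezh2 -/-, 174 ± 23.2 in V617F Ezh2 +/-, 289 ± 31.2 in V617F, 73.4 ± 5.89 in Ezh2 -/-, 193 ± 4.28 in Ezh2 +/- and 303 ± 20 in control (SD), without overlap between the Ezh2 genotypes. All 12 MEP markers, among them Gata1 and Klf1, averaged at least 1 CPM in each group, and their summed level was 4778 to 8464 CPM per library. In 3 libraries, control replicate 5 and Ezh2 +/- replicates 2 and 5, a list of 14 neutrophil genes, which adds Mpo, Elane, Csf3r and Cxcr2 to the 10, summed to 276, 284 and 182 CPM, above the 18.1 to 97.8 CPM of the other 10 libraries without V617F. The 10 genes described here summed to 41.9, 73.7 and 60.9 CPM in those 3 libraries, within the 11.1 to 75.8 CPM of the other 10.

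The alarmin genes rose with V617F in Ezh2 +/+ MEPs, by a fitted 11.2-fold for S100a8 and 10.6-fold for S100a9. S100a8 measured 153, 109, 69.2 and 121 CPM in the 4 V617F libraries, against 6.65, 4.83, 15.3, 11 and 8.71 CPM in the 5 control libraries. The lowest V617F library, replicate 3 and the only male, lay far above the highest control library. S100a9, whose product pairs with that of S100a8, measured 187, 137, 86.0 and 156 CPM in V617F and 8.28, 7.12, 20, 13.8 and 12.2 CPM in control. The groups again did not overlap and the same V617F library was lowest. The log2 fold change was 3.49 ± 0.52 (SE, adjusted p = 6.42e-05) for S100a8 and 3.41 ± 0.51 (adjusted p = 6.36e-05) for S100a9, from edgeR's quasi-likelihood test over all 13928 tested genes with Benjamini-Hochberg adjustment; genes with an adjusted p under 0.05 are called here. A change in the number of cells of a type and a change in RNA per cell cannot be told apart in such bulk libraries.

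The secondary granule genes rose as well. Ltf, which encodes the iron-binding protein lactoferrin, measured 74.2, 57.4, 37.5 and 59.2 CPM in V617F, against 4.61, 2.90, 8.58, 6.82 and 3.36 CPM in control. Lcn2, which encodes the siderophore-binding lipocalin-2, measured 39.9, 27.8, 18.9 and 29.2 CPM in V617F and 2.36, 1.5, 4.86, 3.39 and 2.41 CPM in control. In both genes V617F replicate 1 was highest and replicate 3 lowest, and no control library reached the V617F range. Camp, the cathelicidin antimicrobial peptide gene, averaged 38.7 ± 13.6 CPM in V617F (n = 4) and 3.43 ± 1.3 in control (SD, n = 5). Ngp, the neutrophilic granule protein gene of the cystatin superfamily, averaged 111 ± 30.2 CPM in V617F and 12.4 ± 4.06 in control. The 4 log2 fold changes were 3.32 ± 0.49 for Ltf, 3.20 ± 0.52 for Lcn2, 3.32 ± 0.53 for Camp and 3.01 ± 0.50 for Ngp (SE, edgeR adjusted p between 5.57e-05 and 0.000195).

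The remaining 4 genes also rose. Cd177, a GPI-anchored neutrophil surface protein that binds PECAM1, measured 16.1, 11.2, 6.99 and 10.7 CPM in V617F, against 1.13, 0.703, 1.87, 1.73 and 1.29 CPM in control (log2 fold change 2.94 ± 0.50, edgeR adjusted p = 0.000211). Cebpe measured 3.63, 2.39, 1.24 and 1.44 CPM in V617F, against 0.393, 0.181, 0.183, 0.0878 and 0.479 CPM in control (2.83 ± 0.74, edgeR adjusted p = 0.00688). Both genes separated the groups fully, Cebpe with the wider spread on either side. Mmp9, gelatinase B of the tertiary granules, measured 1.5, 1.72, 1.39 and 1.28 CPM in V617F and 0.393, 0.363, 0.495, 0.263 and 0.364 CPM in control (1.89 ± 0.42, edgeR adjusted p = 0.00202). Mmp8, the neutrophil collagenase, rested on 23 to 38 counts per V617F library and 1 to 12 per control library, 0.696 ± 0.177 CPM in V617F (n = 4) and 0.126 ± 0.0752 in control (SD, n = 5), with a log2 fold change of 2.42 ± 0.59 (edgeR adjusted p = 0.00465). Mmp9 and Mmp8 had the smallest of the 10 fold changes.

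In all, 10 of 10 genes rose with V617F in Ezh2 +/+ MEPs, where 9.73% of all tested genes were called higher. The 10 genes' median log2 fold change was 3.11, beside 0.01 over all tested genes. In all 10 each V617F library lay above each control library, which held for 5.23% of all tested genes. The count of 10 called genes held in each of the alternative fits tried. The 10 genes together took 0.0307 to 0.0708% of a V617F library's counts and 0.00272 to 0.00746% of a control library's.

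**Figure D1:**
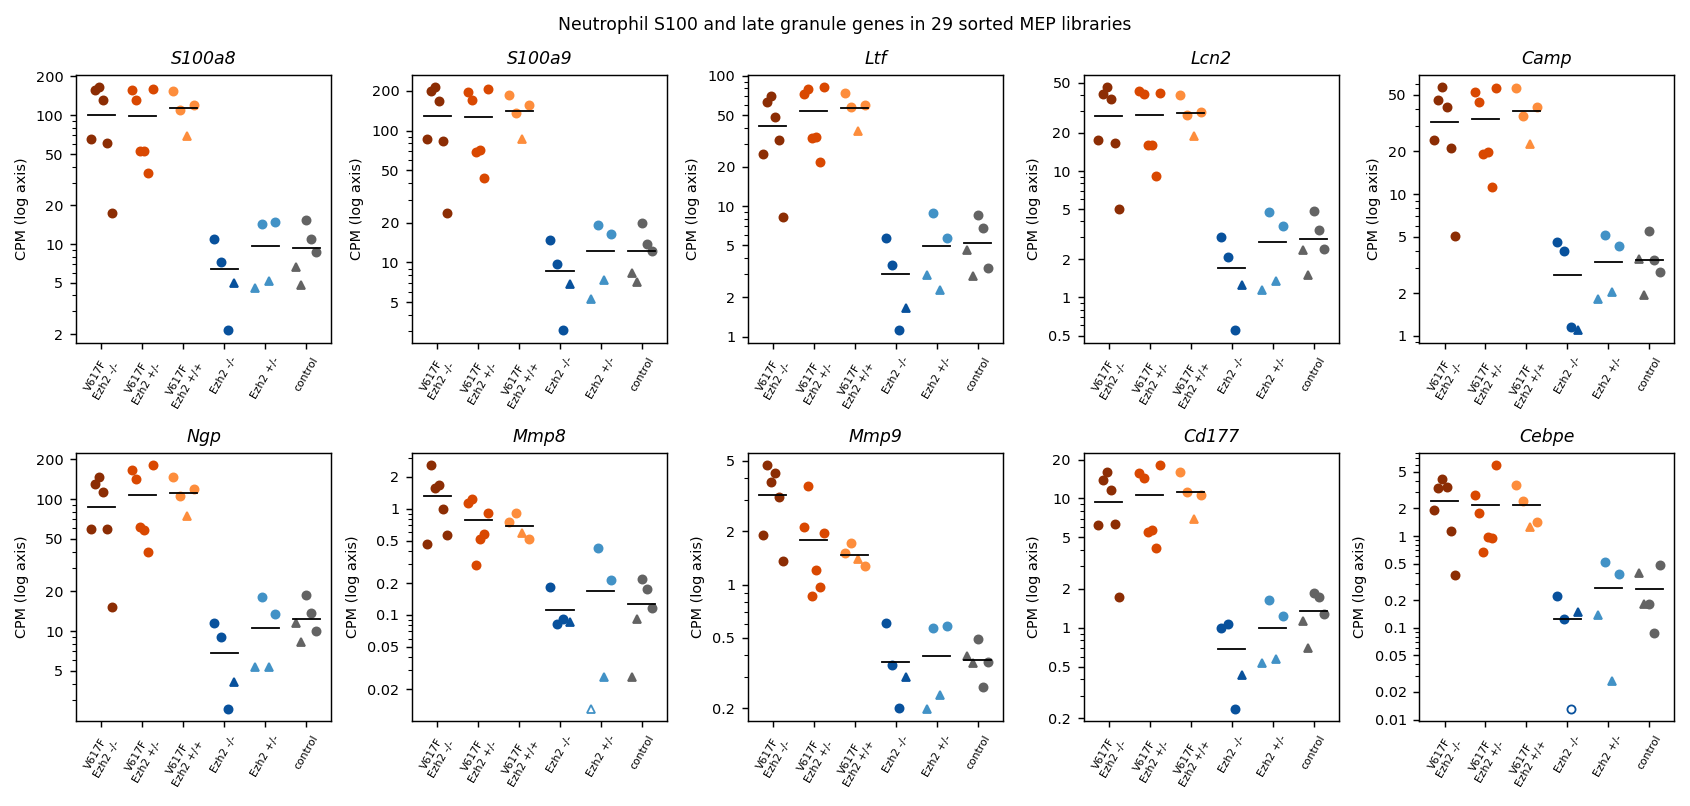
CPM on a log axis for each of the 10 genes in the 29 libraries, by group; circles are female and triangles male libraries, bars are group means, and open symbols are counts of 0, drawn below the lowest value above 0. S100a8 is at 17.5 to 166 CPM in the 16 libraries with V617F and at 2.14 to 15.3 CPM in the 13 without it. V617F Ezh2 -/- replicate 6 is the lowest with V617F for S100a8. For Ltf, Camp, Ngp, Cd177 and Cebpe that library lies below the highest library without V617F. For Ltf it is at 8.32 CPM, against 8.89 in Ezh2 +/- replicate 2. Mmp8 overlaps as well, at 0.295 CPM in V617F Ezh2 +/- replicate 3 and 0.430 in Ezh2 +/- replicate 2.

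Per kilobase of the gene length given in the files, which allows genes to be set beside each other, S100a9 (488 bases) and S100a8 (392 bases) were level in V617F at 290 ± 86.9 and 288 ± 88.3 CPM per kb (SD, n = 4). Ngp followed at 95.5 ± 26, Camp at 64.6 ± 22.8, Lcn2 at 33.9 ± 10.1 and Ltf at 20.8 ± 5.50 CPM per kb. Cd177 at 4.15 ± 1.38, Cebpe at 1.76 ± 0.882, Mmp9 at 0.469 ± 0.0596 and Mmp8 at 0.284 ± 0.0721 CPM per kb were far lower. In control the order of the 10 genes was the same, with S100a9 at 25.2 ± 10.5, S100a8 at 23.7 ± 10.4, Ngp at 10.7 ± 3.5, Camp at 5.73 ± 2.17, Lcn2 at 3.41 ± 1.5 and Ltf at 1.92 ± 0.876 CPM per kb (SD, n = 5). S100a8 and S100a9 differed by less than their spread in both groups. In control Lcn2 and Ltf differed by less than the larger of their SDs. Cebpe (0.214 ± 0.132) and Mmp9 (0.120 ± 0.0264 CPM per kb) did so in control as well. A level per kilobase depends on the gene length used.

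With Ezh2 deleted, all 10 genes were again higher with V617F, but the V617F Ezh2 -/- libraries spread widely. S100a8 measured 17.5 CPM in the lowest, 98.4 in the median and 166 in the highest of the 6 V617F Ezh2 -/- libraries, against 11, 7.31, 2.14 and 4.96 CPM in the 4 Ezh2 -/- libraries. The groups did not overlap, and replicate 6 alone set the V617F minimum, since the next library, replicate 5, had 61.3 CPM. Ltf ranged over 8.32, 40.4 and 69.7 CPM (lowest, median and highest) in V617F Ezh2 -/-, against 5.65, 3.56, 1.12 and 1.65 CPM in Ezh2 -/-. Mmp9 ranged over 1.36, 3.46 and 4.74 CPM in V617F Ezh2 -/- and measured 0.610, 0.350, 0.201 and 0.301 CPM in Ezh2 -/-. Cebpe ranged over 0.378, 2.65 and 4.20 CPM in V617F Ezh2 -/- and measured 0.224, 0.124, 0 and 0.15 CPM in Ezh2 -/-; the count of 0, in replicate 3, allows up to 0.0549 CPM.

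The log2 fold changes with V617F in Ezh2 -/- MEPs lay between 3.03 ± 0.44 for Mmp9 and 4.08 ± 0.84 for Cebpe (SE), with edgeR adjusted p between 6.18e-05 and 0.00104 and a median of 3.59, beside -0.03 over all tested genes. The 10 called higher compare with 19.1% of all tested genes called higher here, and the 10 without overlap with 19%. The count of called genes stayed at 10 in the alternative fits tried. For the alarmins the values were 3.73 ± 0.57 (S100a8) and 3.67 ± 0.56 (S100a9), and for Lcn2, Ltf, Cd177, Ngp, Camp and Mmp8 they were 3.76, 3.6, 3.58, 3.51, 3.43 and 3.27.

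In Ezh2 +/- MEPs the 10 genes were also higher with V617F. S100a8 measured 157, 131 and 161 CPM in V617F Ezh2 +/- replicates 1, 2 and 6 and 52.6, 53.0 and 35.6 CPM in replicates 3, 4 and 5, against 4.60, 14.3, 5.21 and 14.7 CPM in the 4 Ezh2 +/- libraries. The groups did not overlap, and the low Ezh2 +/- values, in replicates 1 and 4, are those of the 2 males. Of the 10 genes 10 were called higher by edgeR, with 3.35% of all tested genes called higher, and 9 did not overlap, with 2.78% of all tested genes doing so. The exception was Mmp8, at 0.295 CPM in its lowest V617F Ezh2 +/- library and 0.430 CPM in its highest Ezh2 +/- library (1.86 ± 0.60, edgeR adjusted p = 0.048). The others ranged from 2.0 ± 0.44 for Mmp9 to 3.09 ± 0.53 for Ltf. Fitted on these 2 groups alone, where all males are in the Ezh2 +/- group, 1 of 10 (Ltf) was called. Without control replicate 5 and Ezh2 +/- replicates 2 and 5, which leaves only male Ezh2 +/- libraries, 0 were called, with S100a8 at 3.47 (edgeR adjusted p = 0.0798).

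**Figure D2:**
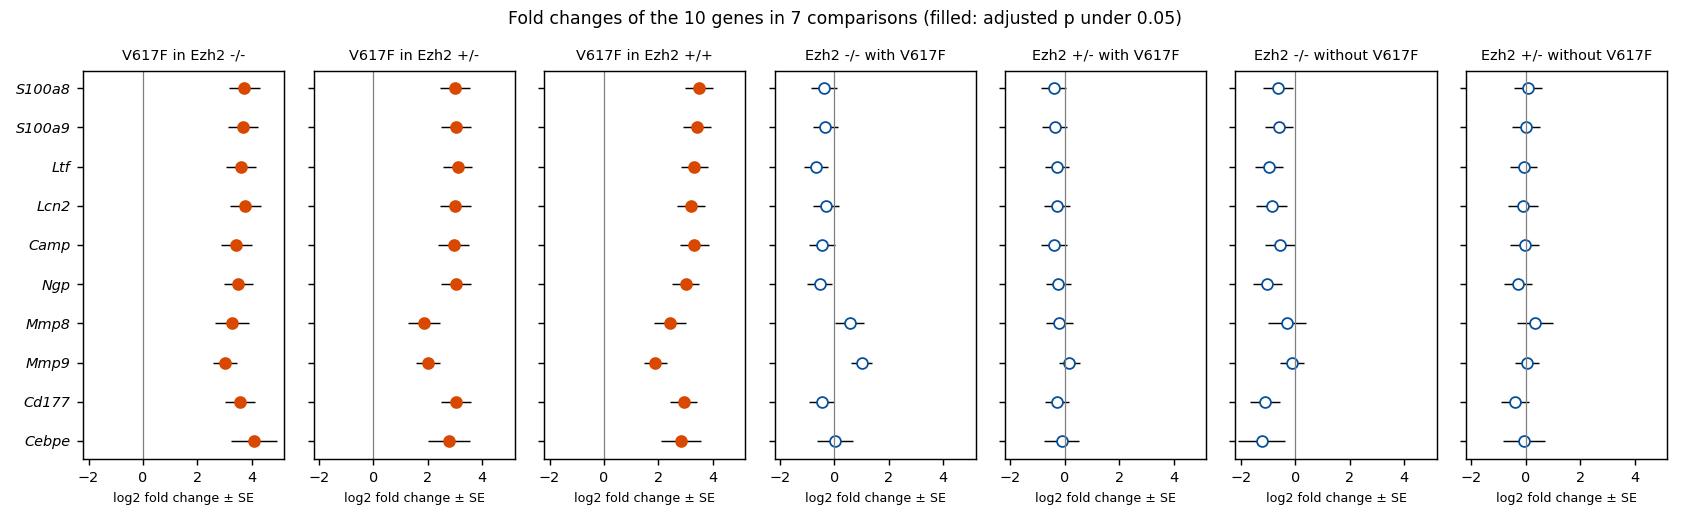
Log2 fold change ± SE (horizontal axis) of the 10 genes (rows) in 7 comparisons (panels); filled points have an edgeR adjusted p under 0.05. The 3 comparisons of V617F within an Ezh2 genotype have 10 filled points each, between 1.86 and 4.08, and the 4 comparisons of an Ezh2 genotype with Ezh2 +/+ have 0.

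Loss of Ezh2 called none of the 10 genes. Without V617F, S100a8 averaged 6.36 ± 3.75 CPM in Ezh2 -/- (n = 4) and 9.30 ± 4.07 CPM in control (SD, n = 5). Ngp averaged 6.81 ± 4.17 CPM in Ezh2 -/- and 12.4 ± 4.06 CPM in control. All 10 log2 fold changes were below 0, from -1.23 ± 0.87 for Cebpe to -0.13 ± 0.44 for Mmp9 (SE), with a median of -0.76 beside -0.01 over all tested genes, and for all 10 genes the libraries of the groups overlapped, where 11.2% of all tested genes had each Ezh2 -/- library below each control library. No gene passed by edgeR (0 of 10, lowest adjusted p = 0.136 for Cd177, 1 at an unadjusted p under 0.05, 0 by DESeq2), where 12.2% of all tested genes were called lower and 11.5% higher. By edgeR 5127 of all 13928 tested genes had an unadjusted p under 0.05. With standard errors of 0.44 to 0.87 on the log2 scale, changes of this size were not detectable in these libraries.

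With V617F, Ezh2 -/- libraries were set against Ezh2 +/+ libraries in the same way, and again no gene was called. The alarmins and secondary granule genes other than Mmp8 had log2 fold changes of V617F Ezh2 -/- over V617F between -0.68 ± 0.44 (Ltf) and -0.31 ± 0.47 (Lcn2), and Cd177 had -0.47 ± 0.45. Cebpe had 0.02 ± 0.67 and Mmp8 0.56 ± 0.54. Mmp9 measured 1.92, 4.74, 3.78, 4.30, 3.13 and 1.36 CPM in V617F Ezh2 -/-, against 1.5, 1.72, 1.39 and 1.28 CPM in V617F. Of the 6 V617F Ezh2 -/- libraries 5 lay above all V617F libraries, and replicate 6 lay between them. Its log2 fold change of 1.01 ± 0.39 did not pass (edgeR adjusted p = 0.0572), and it passed by DESeq2 (adjusted p = 0.0379), without the sex term (0.0302), with library totals as the only scaling (0.0492) and without V617F Ezh2 -/- replicate 1 (0.0428) or replicate 6 (0.0265). By edgeR 0 of 10 genes were called (1 at an unadjusted p under 0.05, 1 by DESeq2), where 26.6% of all tested genes were called in either direction. An unadjusted p under 0.05 by edgeR was found for 5519 of all 13928 tested genes.

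Heterozygous loss of Ezh2 left no call either. In Ezh2 +/- against control the 10 log2 fold changes lay between -0.39 (Cd177) and 0.35 (Mmp8), each with an edgeR adjusted p of 1 (0 of 10 called, 0 at an unadjusted p under 0.05, 0 by DESeq2; 0.0144% of all tested genes called). In V617F Ezh2 +/- against V617F they lay between -0.41 (S100a8) and 0.16 (Mmp9), with edgeR adjusted p between 0.966 and 0.986 (0 called, 0 at an unadjusted p under 0.05, 0 by DESeq2; 0.00718% of all tested genes called). The tests of the difference itself were no clearer. The V617F effect in Ezh2 -/- minus that in Ezh2 +/+ was above 0 for all 10 genes, from 0.11 ± 0.71 for Camp to 1.25 ± 1.07 for Cebpe on the log2 scale with 1.14 ± 0.58 for Mmp9. None was called by edgeR (lowest adjusted p = 0.146; 0 at an unadjusted p under 0.05, 0 by DESeq2), where 19.1% of all tested genes were. The same difference for Ezh2 +/- lay between -0.56 (Mmp8) and 0.11 (Mmp9 and Cd177), with 0 called (0 at an unadjusted p under 0.05, 0 by DESeq2) and 0% of all tested genes called. Of all 13928 tested genes, 384 had an unadjusted p under 0.05 by edgeR in Ezh2 +/- against control. The number was 881 in V617F Ezh2 +/- against V617F, 5397 for the Ezh2 -/- difference and 937 for the Ezh2 +/- difference. The comparisons come from 1 fit and share groups of libraries, so their values are not independent of each other.

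By mean CPM of S100a8 the order of the groups was V617F (113 ± 34.6), V617F Ezh2 -/- (99.7 ± 60.1), V617F Ezh2 +/- (98.3 ± 57.4), Ezh2 +/- (9.70 ± 5.55), control (9.30 ± 4.07) and Ezh2 -/- (6.36 ± 3.75, SD). Neighbours in this order differed by less than the SD, except V617F Ezh2 +/- and Ezh2 +/-. V617F Ezh2 -/- was not tested against V617F Ezh2 +/-, nor Ezh2 -/- against Ezh2 +/-. S100a8 varied 77.7-fold between the highest and the lowest of the 29 libraries.

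Over that range 6 of the genes varied by at most 2.46-fold relative to S100a8, and Mmp8, Mmp9 and Cebpe by more. S100a9 was 1.13 to 1.47 times S100a8 in CPM in every one of the 29 libraries, a 1.31-fold range. Lcn2 was 0.242 to 0.354 times S100a8, a 1.47-fold range. Cd177, Ngp, Ltf and Camp varied 2.03, 2.08, 2.08 and 2.46 times relative to S100a8. The ratios are given as a description, since both genes of a ratio are read from the same library.

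Mmp8 and Cebpe reached 0.0427 and 0.0591 times S100a8 and each had 1 library at a count of 0. Over the 28 other libraries Mmp8 varied 10.9-fold and Cebpe 11.7-fold relative to S100a8. Mmp9 varied 9.57-fold, from 0.00982 in V617F replicate 1 to 0.0940 in an Ezh2 -/- library. It was 0.0294, 0.0304, 0.0227, 0.0327, 0.0510 and 0.0776 times S100a8 in the V617F Ezh2 -/- libraries, against 0.00982, 0.0157, 0.0201 and 0.0106 in the V617F libraries, without overlap. In control it was 0.0239 to 0.0751 times S100a8, in Ezh2 -/- 0.0479 to 0.0940, in Ezh2 +/- 0.0396 to 0.0455 and in V617F Ezh2 +/- 0.0121 to 0.0277, so the V617F range lay below those of all groups except V617F Ezh2 +/-. Ltf was 0.368 to 0.528 times S100a8 in V617F Ezh2 -/- and 0.485 to 0.541 in V617F, and Ngp was 0.83 to 0.972 times S100a8 in V617F Ezh2 -/- and 0.959 to 1.07 in V617F. These ranges overlap, and no test was made of any ratio.

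**Figure D3:**
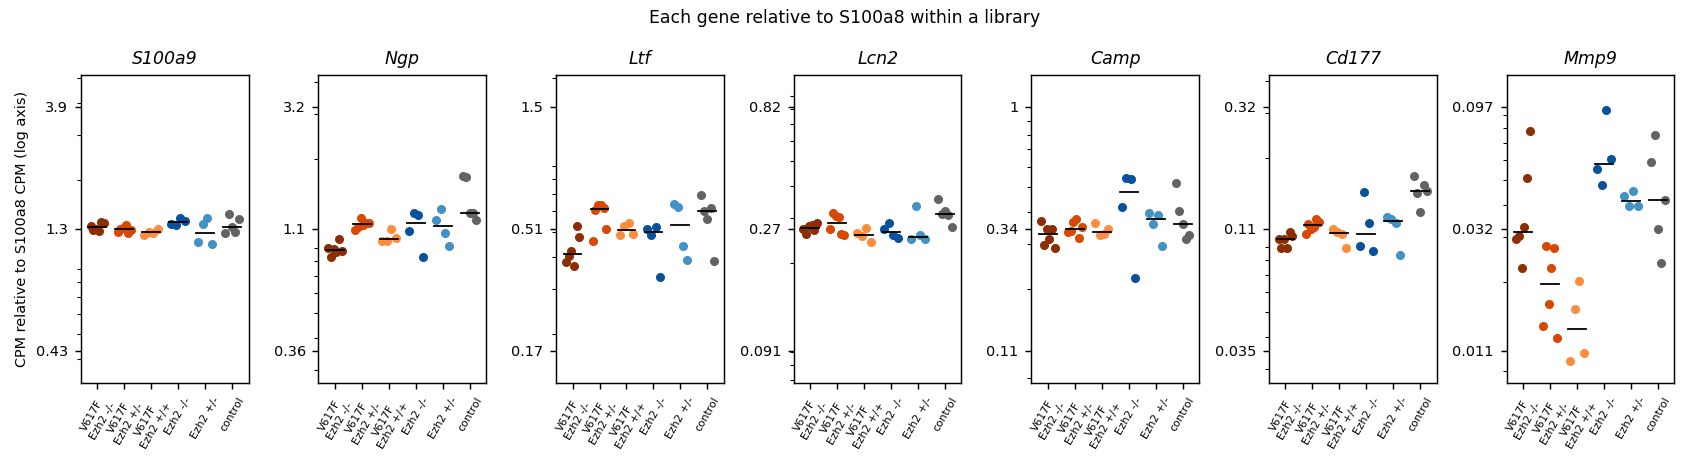
CPM of 7 genes relative to that of S100a8 in the same library (log axis, each panel spanning the same range around the gene's median), by group; points are libraries and bars are medians. S100a9 and Lcn2 form nearly flat bands, and Mmp9 is lowest in V617F (0.00982 to 0.0201).

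Within a group the genes ranked the libraries alike. V617F Ezh2 -/- replicate 3 was highest for 8 of 10 genes and replicate 6 lowest for 9. V617F Ezh2 +/- replicate 6 was highest for 7 and replicate 5 lowest for 7. V617F replicate 1 was highest for 8 and replicate 3 lowest for 8. In Ezh2 -/- replicate 1 was highest for 9 and replicate 3 lowest for 8, in Ezh2 +/- replicate 2 was highest for 8 and replicate 1 lowest for 7, and in control replicate 3 was highest for 9 and replicate 2 lowest for 7. Mmp8 and Mmp9 are the most frequent exceptions; in V617F both had other libraries at the top and at the bottom.

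Labelled sex was set beside the 10 genes inside the groups that held both sexes. Every female library lay above every male library for 10 of 10 genes in Ezh2 +/- (2 females, 2 males), for 8 in V617F (3 females, 1 male), for 5 in control (3 females, 2 males) and for 1 in Ezh2 -/- (3 females, 1 male). The share of all tested genes split by sex in this way was not computed. With so few libraries such splits can arise by chance. The 10 genes also ranked the libraries alike, so their splits are not independent of each other. In Ezh2 +/- the 2 females are replicates 2 and 5, which had the high sums of the 14 neutrophil genes given above. The male over female term of the fit was -1.02 ± 0.41 for S100a8, -1.33 ± 0.51 for Mmp8 and -0.44 ± 0.33 for Mmp9 (log2, SE), and below 0 for all 10 genes. None was called by edgeR (adjusted p between 0.158 and 0.479), where 0.0215% of all tested genes were called lower and 0.0287% higher in males. By edgeR 8 of the 10 had an unadjusted p under 0.05. The share of all tested genes at that threshold is not given here. Among female libraries only, 10 genes were called higher with V617F in Ezh2 -/-, 7 in Ezh2 +/- and 10 in Ezh2 +/+. The 3 that lost their call in Ezh2 +/- were Mmp8 (1.3, edgeR adjusted p = 0.265), Mmp9 (1.64, 0.0928) and Cebpe (2.28, 0.194).

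Markers of other cells were summed in the same libraries. The 12 monocyte and macrophage markers summed to 31.0 to 66.8 CPM in V617F Ezh2 -/-, 19.8 to 88.1 in V617F Ezh2 +/-, 28.9 to 51.5 in V617F, 25.2 to 38.6 in Ezh2 -/-, 24.7 to 139 in Ezh2 +/- and 35.1 to 120 in control, with all 12 counted in each group. These ranges overlap, and the 10 genes summed to 318 to 679 CPM in V617F and 27.9 to 75.8 CPM in control. Single genes of the monocyte and macrophage list moved in opposite directions. Ly6c2, a monocyte surface antigen gene, was at 5.95 to 15.3 CPM in V617F and 0.790 to 4.26 in control. Csf1r, the receptor gene for M-CSF, was at 1.76 to 3.6 CPM in V617F and 6.61 to 25.8 in control. Of the 12, 1 had each V617F library above each control library and 6 had each below, against 5.23% and 10.1% of all tested genes; both genes were chosen for naming after their values were seen. The 12 T and NK cell markers summed to 33.4 to 65.0 CPM in V617F and 62.9 to 215 in control, and the 8 B cell markers to 6.86 to 48.6 CPM in V617F Ezh2 -/- and 3.03 to 9.67 in V617F. Megakaryocyte and platelet markers, all 10 counted, summed to 478 to 771 CPM in V617F Ezh2 -/-, 120 to 888 in V617F Ezh2 +/-, 203 to 940 in V617F, 67.5 to 90.2 in Ezh2 -/-, 89.2 to 219 in Ezh2 +/- and 78.9 to 260 in control. Mast cell, basophil and eosinophil markers summed to 239 to 337 CPM in V617F Ezh2 -/-, 111 to 328 in V617F Ezh2 +/-, 130 to 249 in V617F, 82.2 to 150 in Ezh2 -/-, 104 to 173 in Ezh2 +/- and 102 to 205 in control, where Prss34 was at 0. Erythroblast markers, 9 counted, had a median sum of 456 CPM in V617F Ezh2 -/-, 431 in V617F Ezh2 +/-, 525 in V617F, 639 in Ezh2 -/-, 681 in Ezh2 +/- and 648 in control. The median sums of the megakaryocyte list and of the mast cell, basophil and eosinophil list were higher with V617F in each Ezh2 genotype. That of the erythroblast list was lower with V617F in each. That of the T and NK cell list was 43.7 CPM in V617F and 112 CPM in control. It was 51.4 CPM in V617F Ezh2 +/- and 108.5 in Ezh2 +/-, and 69.6 in V617F Ezh2 -/- and 65.5 in Ezh2 -/-. Nkg7, which is also in the primary granule list below, averaged 44.3 CPM in V617F Ezh2 -/- and 19.8 in Ezh2 -/-. Bcl11b also had a higher mean in V617F Ezh2 -/-, and every other marker of the list a lower one. Among these, Il2rb averaged 6.61 CPM in V617F Ezh2 -/- and 20.5 in Ezh2 -/-. Of the 12 T and NK cell markers 0 had each V617F library above each control library and 7 had each below. The part of these cells in the result was not tested.

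**Figure D4:**
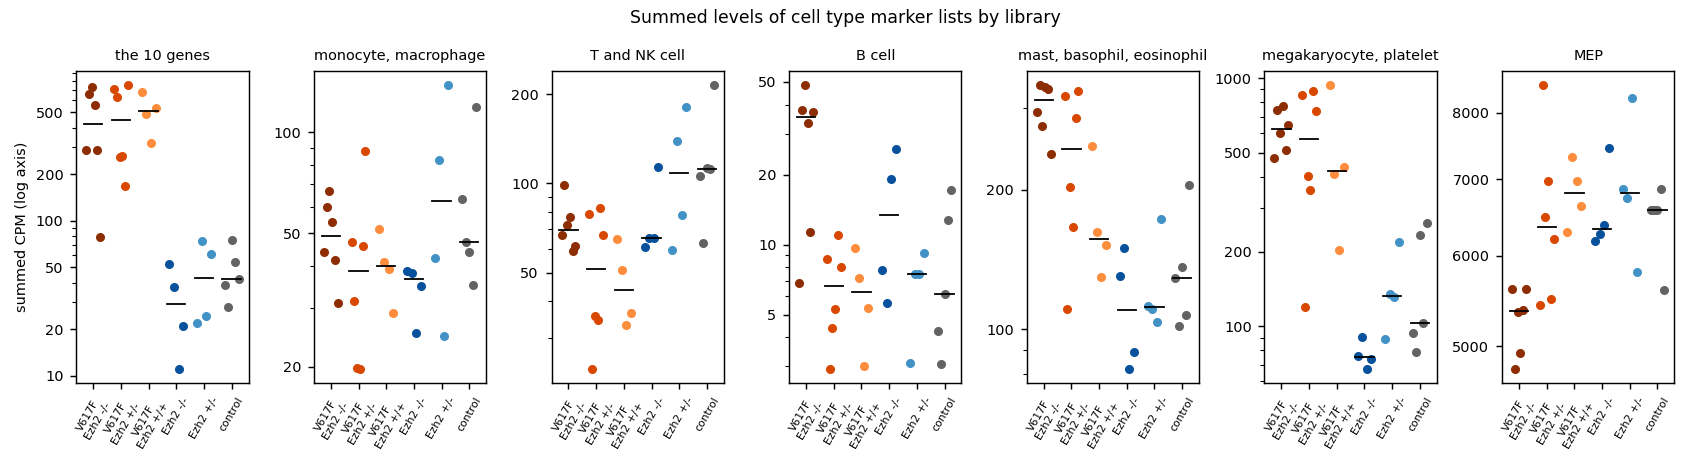
Summed CPM (log axis) per library of the 10 genes and of 6 marker lists, by group; points are libraries and bars are medians. The 10 genes sum to at least 318 CPM in V617F and at most 75.8 CPM in control, while the monocyte and macrophage sums of all 6 groups overlap.

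Other neutrophil genes were read from lists chosen with earlier results of these data known. Their counts stand beside 19.1% of all tested genes called higher and 22.5% called lower with V617F in Ezh2 -/-, 3.35% and 6.51% in Ezh2 +/-, and 9.73% and 13.9% in Ezh2 +/+. Of 10 primary granule and promyelocyte genes, 5 rose with V617F in Ezh2 +/+ MEPs, 0 fell and 5 did not pass (median log2 fold change 1.93, beside 3.11 for the 10 late genes and 0.01 for all tested genes). Elane, the neutrophil elastase gene, averaged 58.7 ± 26.6 CPM in V617F and 6.69 ± 7.18 in control (3.11 ± 0.73, edgeR adjusted p = 0.00327). Ms4a3, a gene of granulocyte and monocyte progenitors, rose by 2.60 and Prtn3, which encodes proteinase 3, by 2.36 on the log2 scale. For both genes the V617F and control libraries overlapped. With V617F, 9 of the 10 rose in Ezh2 -/- MEPs (median 3.04) and in Ezh2 +/- MEPs 1, Elane, did (median 1.24), with overlapping libraries. Mpo was at 78.3 to 292 CPM in V617F, 9.16 to 205 in control and 6.99 to 187 in Ezh2 +/-. Mpo and Elane are among the 14 genes whose sum was high in control replicate 5 and Ezh2 +/- replicates 2 and 5. The part of those libraries in the medians of this list was not tested.

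A further list of 18 tested neutrophil genes held mostly, not only, genes of secondary or tertiary granules or the membrane. Of these, 12 rose with V617F in Ezh2 +/+, 2 fell and 4 did not pass (median 1.79). The risers include Fcnb, ficolin B, at 5.57 ± 1.66 CPM in V617F and 0.501 ± 0.174 in control (3.34 ± 0.60, edgeR adjusted p = 0.000385), Lyz2, lysozyme, at 59.8 ± 27.8 CPM in V617F and 14.5 ± 7.51 in control (1.86 ± 0.38), and Anxa1, annexin A1, at 24.4 ± 10.8 CPM in V617F and 6.76 ± 2.83 in control (1.72 ± 0.33). Those that fell were Adam8, a membrane metalloproteinase, at -1.38 ± 0.23, and Lcp1, the leukocyte actin bundler plastin-2, at -0.82 ± 0.23. With V617F, 15 rose and 0 fell in Ezh2 -/- MEPs, and in Ezh2 +/- MEPs 7 rose and 1, Adam8, fell. Without V617F, Ezh2 -/- MEPs had 5 of the 18 lower than control, where 12.2% of all tested genes were called lower. Among them were Padi4, a histone citrullinating enzyme (-2.81 ± 0.78), Itgam, the integrin CD11b (-1.89 ± 0.59), and Lyz2 (-1.25 ± 0.40). Padi4 was low in both groups, at 0.185 ± 0.0576 CPM in Ezh2 -/- and 1.14 ± 1.61 in control (SD). The libraries overlapped for Padi4 and Lyz2. For Itgam each Ezh2 -/- library lay below each control library.

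Of 17 receptor and secreted-protein genes of mature neutrophils tested, 4 rose and 3 fell with V617F in Ezh2 +/+. Those that fell include Clec4d, a C-type lectin receptor, at -0.69 ± 0.20 and Selplg, the P-selectin ligand, at -0.43 ± 0.13. Within Ezh2 -/- MEPs 9 rose and 0 fell with V617F, among them Csf3r, the G-CSF receptor, at 6.66 ± 4.26 CPM in V617F Ezh2 -/- and 0.941 ± 0.393 in Ezh2 -/- (2.32 ± 0.85, edgeR adjusted p = 0.0327). In Ezh2 +/- MEPs 2 of the 17 rose with V617F and 1 fell. Ly6g was not analysed here.

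Of 12 transcription factors of granulocyte development, 1 rose and 2 fell with V617F in Ezh2 +/+, shares near those of all tested genes. Those that fell were Id2, an inhibitor of bHLH factors (-2.37 ± 0.46), and Rara, the retinoic acid receptor alpha (-0.49 ± 0.14). In Ezh2 -/- MEPs 5 rose with V617F and 0 fell, among them Spi1, which encodes PU.1, at 12.3 ± 3.64 CPM in V617F Ezh2 -/- and 2.80 ± 0.591 in Ezh2 -/- (1.98 ± 0.40), and Gfi1, a repressor needed for neutrophil maturation, at 3.17 ± 2.05 CPM in V617F Ezh2 -/- and 0.541 ± 0.169 in Ezh2 -/- (2.24 ± 0.72). Spi1 was also lower in Ezh2 -/- than in control, where it averaged 7.80 ± 4.18 CPM (-1.55 ± 0.39, edgeR adjusted p = 0.00555). In Ezh2 +/- MEPs 1 of the 12 rose with V617F and 1, Id2, fell.

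Of 13 other S100 genes in the files 6 were tested, and with V617F in Ezh2 +/+ MEPs 0 rose and 1 fell, S100a10, the partner of annexin A2 (-0.40 ± 0.14). In Ezh2 +/- MEPs 0 rose and 0 fell with V617F, and in Ezh2 -/- MEPs 5 of 6 rose. S100a6, calcyclin, averaged 6.31 ± 1.92 CPM in V617F Ezh2 -/- and 0.454 ± 0.160 in Ezh2 -/- (3.48 ± 0.61, edgeR adjusted p = 0.00034), and it was lower in Ezh2 -/- than in control (2.23 ± 1.31 CPM in control, -2.31 ± 0.59). The V617F effect on S100a6 and on S100a4 was larger in Ezh2 -/- than in Ezh2 +/+ by 2.59 ± 0.77 (edgeR adjusted p = 0.0275) and 2.57 ± 0.78 (0.0305) on the log2 scale, whereas the same difference was 0.25 ± 0.71 for S100a8 and 0.26 ± 0.69 for S100a9 and passed for neither.

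Of 11 receptors and binding partners of the proteins tested in Ezh2 +/+ MEPs, 1 rose with V617F, the adaptor gene Myd88 (0.22 ± 0.05), and 1 fell, Ager, which encodes RAGE (-0.79 ± 0.24). In Ezh2 +/- MEPs 0 of the 11 rose and 0 fell with V617F. In Ezh2 -/- MEPs 3 rose and 2 fell with V617F; Tlr4, the Toll-like receptor gene, averaged 2.83 ± 1.56 CPM in V617F Ezh2 -/- and 0.594 ± 0.114 in Ezh2 -/- (1.98 ± 0.57), and Slc22a17, a lipocalin-2 receptor gene, averaged 2.95 ± 0.565 CPM in V617F Ezh2 -/- and 0.790 ± 0.231 in Ezh2 -/- (1.76 ± 0.45). Among 3 tested metalloproteinase inhibitors Timp3 rose with V617F in each Ezh2 genotype, by 3.94 ± 0.58 in Ezh2 -/-, 2.42 ± 0.55 in Ezh2 +/- and 1.68 ± 0.49 in Ezh2 +/+ on the log2 scale, and Timp2 fell in Ezh2 +/+ (-0.59 ± 0.13). The Timp3 libraries with and without V617F overlapped in Ezh2 +/- and Ezh2 +/+ and not in Ezh2 -/-. Those of Timp2 overlapped in Ezh2 +/+.

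**Figure D5:**
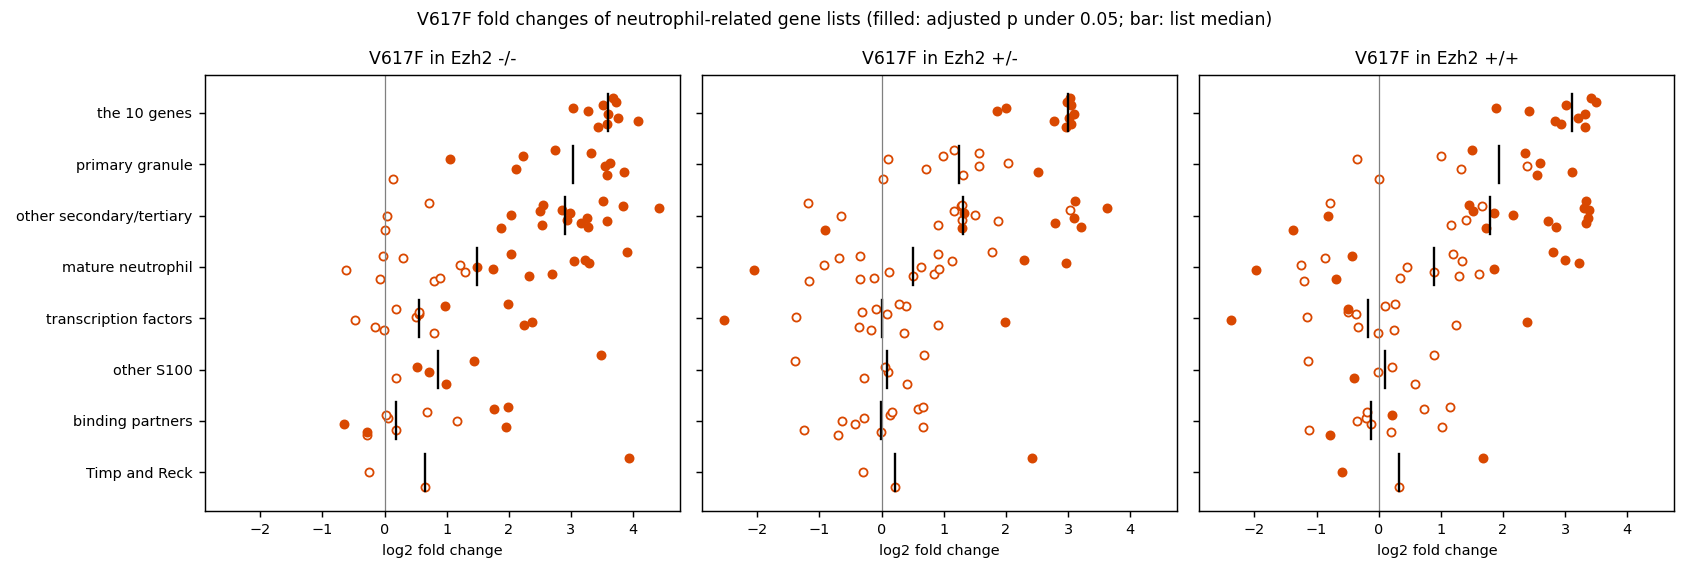
Log2 fold change with V617F (horizontal axis, the same in all panels) of each tested gene in 8 lists (rows) within Ezh2 -/-, Ezh2 +/- and Ezh2 +/+ (panels); filled points have an edgeR adjusted p under 0.05 and bars are list medians. The 10 late genes are all filled, with medians of 3.59, 3.0 and 3.11 in the 3 panels, and the transcription factors, other S100 genes and binding partners have medians between -0.17 and 0.86.

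The genes whose log2 CPM over the 29 libraries was most like the mean of the 10 were Fcnb (Pearson r = 0.965), C3 (0.958), Chil3 (0.950), Anxa1 (0.947), Hp (0.943), Elane (0.933), Lyz2 (0.931), Ly6c2 (0.923), App (0.920) and Pglyrp1 (0.911). The likeness is given as a description, without a p, since the differences between groups are part of it. Taken on deviations from the group means it was 0.892 for Fcnb, 0.885 for C3 and 0.877 for Pglyrp1, and 0.552 for App. The 10 genes themselves had 0.790 (Mmp8) to 0.988 (Lcn2 and Ngp) on that measure. C3, complement component 3, averaged 15.8 CPM in V617F and 2.42 CPM in control (2.54 ± 0.58, edgeR adjusted p = 0.00254), and App, the amyloid precursor protein gene, 45.2 CPM in V617F and 13.7 CPM in control (1.67 ± 0.15, edgeR adjusted p = 8.81e-08).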

How the data were processed

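RNA from 230000 sorted MEPs each was isolated with Trizol-LS, its quality was read on a Bioanalyzer Pico chip, and standard Illumina libraries were made, per the labels' protocols. STAR aligned the reads to mouse build mm9, per the submitters' processing notes. Read length, strand setting, annotation and counting program: not given in the sources used here. Reads of overlapping antisense genes may therefore not be told apart. The authors deposited raw counts per Entrez identifier with a gene length. Of 18834 identifiers 18772 were named by the RefSeq gene table of GRCm38.p6, used for names and chromosomes; the 62 unnamed ones (0.884 to 2.68% of counts) were kept in the fit. None of the 10 genes had counts identical to another gene's. No pair of replicates was a duplicate (lowest chi-square per degree of freedom 4.71).

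From the deposited counts, CPM were computed on library totals times TMM factors (0.95 to 1.093). The test was edgeR 4.0.16 (R 4.3.3): filterByExpr (minimum count 10, minimum total 15; 13928 genes kept) and a quasi-likelihood fit of all 29 libraries with group and labelled sex (22 residual degrees of freedom, common dispersion 0.0326). There were 9 comparisons, two-sided, with Benjamini-Hochberg adjustment over all genes tested; each SE is the log2 fold change over the square root of F. The fit was tested on simulated data. Alternatives were DESeq2 1.42.0, other scaling, no filter, no sex term, females only, the compared groups only, a replicate block, leaving out each replicate, and leaving out 3 libraries that earlier results set apart.

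The genes, gene lists and marker lists were chosen with earlier results of these data known. Named beside the 10 were Ezh2 and Jak2, up to 3 called genes per list, comparison and direction (lowest adjusted p, mean log2 CPM of at least 0), and the 10 genes most like them (Pearson correlation of log2 CPM with a prior count of 2).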

Additional observations from a re-analysis of the deposited data

Results flagged for a closer look

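In the 4 Ezh2 -/- libraries without V617F, Mmp8 was at 0.183 CPM in replicate 1 and between 0.0824 and 0.0915 CPM in the other 3, a gap larger than Dixon's 95% critical value allows. The values rest on 4 to 9 counts per library. Of 60 combinations of gene and group tested this was the 1 to pass, and chance flags about 1 in 20 groups.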

How the results depend on the processing

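The 10 calls with V617F in Ezh2 +/+ and the 10 in Ezh2 -/- held under every alternative, left-out replicates included. For V617F in Ezh2 +/-, 10 were called, between 8 and 10 when 1 replicate was left out, 9 without the low-count filter (Mmp8 lost, adjusted p = 0.0531 by edgeR), 9 with the replicate block, 7 among females (Mmp8, Mmp9 and Cebpe lost), 1 with the compared groups only and 0 without control replicate 5 and Ezh2 +/- replicates 2 and 5; Mmp8 lost its call when any of Ezh2 +/- replicates 1, 4 and 5 or V617F Ezh2 +/- replicates 1, 2, 5 and 6 was left out, and Cebpe likewise for Ezh2 +/- replicates 1 and 5 and V617F Ezh2 +/- replicate 6. Calls of V617F Ezh2 -/- over V617F numbered 0, and 1 (Mmp9) with DESeq2, library totals only, no sex term or the replicate block (adjusted p = 0.0497 by edgeR), and were 0 to 1 with 1 replicate left out. In the other comparisons 0 were called in each fit. The cause was not tested. Replicate numbers did not pair libraries: same-numbered deviations correlated at -0.441 to 0.795, over 0.1 in 13 of 28 pairs, and 8 of 29 libraries correlated best with their own number. The block also ended the Cebpe call in Ezh2 +/- (2.46, edgeR adjusted p = 0.0774). No scaling moved the median of all genes by more than 0.091.

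Among single genes, 72 leave-one-out values and 35 others changed sign, none of them called. With DESeq2, S100a9 (-0.0085) in Ezh2 +/- against control and Cebpe (0.034) in the Ezh2 +/- interaction changed sign. With library totals only, S100a9 (-0.0088) in Ezh2 +/- against control changed sign. Without the sex term, S100a9 (-0.024) and Cebpe (0.011) in Ezh2 +/- against control, Mmp8 (0.16) and Cebpe (0.0099) in V617F Ezh2 +/- against V617F and Lcn2 (0.026) in the Ezh2 +/- interaction changed sign. Among female libraries only, Mmp9 (0.013) in Ezh2 -/- against control, Ltf (0.23), Lcn2 (0.24), Camp (0.27), Ngp (0.16) and Cebpe (0.77) in Ezh2 +/- against control, Cebpe (-0.022) in V617F Ezh2 -/- against V617F, Mmp8 (0.10) in V617F Ezh2 +/- against V617F, Camp (-0.13) in the Ezh2 -/- interaction and Ngp (-0.35), Mmp9 (-0.34) and Cd177 (-0.071) in the Ezh2 +/- interaction changed sign. With the replicate block, Ltf (0.0053) and Camp (0.069) in Ezh2 +/- against control and Ngp (-0.010) in the Ezh2 +/- interaction changed sign. With the compared groups only, Cebpe (-0.018) in V617F Ezh2 -/- against V617F and Mmp8 (0.10) in V617F Ezh2 +/- against V617F changed sign. Without control replicate 5 and Ezh2 +/- replicates 2 and 5, S100a8 (-0.40), S100a9 (-0.44), Mmp8 (-2.72) and Mmp9 (-0.73) in Ezh2 +/- against control and S100a8 (0.033), S100a9 (0.11), Ltf (0.28), Lcn2 (0.54), Mmp8 (2.71) and Cebpe (1.29) in the Ezh2 +/- interaction changed sign. In Ezh2 -/- against control, leaving out each replicate in turn gave -0.43 to 0.10 for Mmp9. In Ezh2 +/- against control, leaving out each replicate in turn gave -0.026 to 0.22 for S100a8, -0.14 to 0.15 for S100a9, -0.32 to 0.072 for Ltf, -0.33 to 0.054 for Lcn2, -0.18 to 0.18 for Camp, -0.44 to 0.69 for Mmp8, -0.14 to 0.24 for Mmp9 and -0.45 to 0.26 for Cebpe. In V617F Ezh2 -/- against V617F, leaving out each replicate in turn gave -0.19 to 0.34 for Cebpe. In V617F Ezh2 +/- against V617F, leaving out each replicate in turn gave -0.45 to 0.090 for Mmp8, -0.16 to 0.30 for Mmp9 and -0.73 to 0.19 for Cebpe. In the Ezh2 -/- interaction, leaving out each replicate in turn gave -0.094 to 0.54 for S100a8, -0.068 to 0.54 for S100a9, -0.033 to 0.70 for Ltf and -0.17 to 0.41 for Camp. In the Ezh2 +/- interaction, leaving out each replicate in turn gave -0.40 to 0.054 for Ltf, -0.36 to 0.070 for Lcn2, -0.18 to 0.29 for Ngp, -0.80 to 0.31 for Mmp8, -0.21 to 0.32 for Mmp9, -0.11 to 0.30 for Cd177 and -0.66 to 0.36 for Cebpe.

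Over all genes tested, some counts of calls moved by more than 1.5 times. For V617F Ezh2 -/- against Ezh2 -/-, 3130 genes were lower, 1933 with library totals only and 1605 without Ezh2 -/- replicate 3, which also took the 2665 higher calls to 1592. For V617F Ezh2 +/- against Ezh2 +/-, 467 were higher, 830 with DESeq2, 905 without the sex term, 249 among females, 43 with the compared groups only, 65 without control replicate 5 and Ezh2 +/- replicates 2 and 5, and between 198 and 940 with 1 replicate left out. The 907 lower there became 270 with the compared groups only and 29 without those 3 libraries. For V617F against control, 1355 higher and 1933 lower became 723 and 1152 among females. For V617F Ezh2 -/- against V617F, 1895 lower became 1059 with library totals only, 902 among females, 1075 with the compared groups only and 763 without V617F replicate 4, which also took the 1814 higher to 1191. For Ezh2 -/- against control, 1603 higher and 1704 lower became 887 and 794 among females, and the lower count was 815 without Ezh2 -/- replicate 3. In the Ezh2 -/- interaction, 1180 higher and 1483 lower became 87 and 41 among females, the higher count was 1818 with the compared groups only, the lower count was 835 with the replicate block, and leaving out 1 replicate gave between 151 and 2224 higher and between 146 and 2409 lower. The Ezh2 +/- comparisons with Ezh2 +/+ had at most 1 call a direction, and at most 37 in any alternative; the Ezh2 +/- interaction had 0, and 13 higher with DESeq2. Counts of 1 to 12 per library limit Mmp8 in control.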

Other observations

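Jak2 RNA averaged 237 ± 6.65 CPM in V617F Ezh2 -/-, 235 ± 13.8 in V617F Ezh2 +/-, 231 ± 10 in V617F, 177 ± 9.65 in Ezh2 -/-, 198 ± 11.8 in Ezh2 +/- and 210 ± 9.89 in control (SD). The counts do not separate the V617F allele from the normal one.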
